A study of Mus musculus with 2 samples.

Results

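The genes described here encode the proteins that coat lipid droplets and that control the release of fatty acids from them in the liver. There are 10 of them among the 53342 rows of the deposited tables: the perilipins *Plin2*, *Plin3*, *Plin4* and *Plin5*, the CIDE genes *Cidea*, *Cideb* and *Cidec*, the lipases *Pnpla2* and *Pnpla3*, and the lipase inhibitor *G0s2*. Each was taken by its symbol from both libraries. The list was chosen by function, but with the fold changes of these same libraries already known, so the values below are a description and no test was run on them.

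The data are mRNA sequencing of 1 control and 1 iFIRKO liver sample from male mice. The iFIRKO genotype is labelled Adipoq-CreERT2; Insr flox/flox. Its tamoxifen-inducible Cre is driven by the adiponectin promoter, so that the insulin receptor gene is deleted in adipocytes and not in hepatocytes. The control is labelled WT, whereas the methods of the study describe control mice as IR flox/flox. At 7 weeks of age, mice of both groups were given tamoxifen (100 mg/kg) on each of 5 days. They were examined 3 days after the last dose. The number of mice behind each library is not given in the sources used here. With 1 library per genotype, variation between mice cannot be told apart from an effect of genotype.

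A lipid droplet is a core of triglyceride and cholesteryl ester inside a phospholipid monolayer. Perilipins sit on that surface and limit the access of lipases. CIDE proteins act where droplets touch and pass lipid from smaller to larger droplets, and CIDEB also serves the lipidation of very-low-density lipoprotein. Adipose triglyceride lipase, encoded by *Pnpla2*, makes the initial cut in triglyceride. It is activated by ABHD5 and inhibited by G0S2. Hepatocytes normally carry mainly PLIN2 and PLIN5, and fat-laden livers are known to gain further coat proteins of the adipocyte type.

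The deposited values, which their size shows to be on a log2 scale, were returned to linear normalized reads, the unit used below unless another is named. The worth of 1 read pair in each library gave depths of about 42276584 reads for control and 41304952 for iFIRKO. The fold change is the iFIRKO value over the control value after adding 4.18 normalized reads to each. A gene was compared where at least 1 library held 41.8 normalized reads of it, and "called" below means a fold past 1.5, with no statistical test. Intervals are 95% exact Clopper-Pearson intervals of the plain ratio and cover counting error only.

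The libraries carried the markers of liver. Of 8 hepatocyte markers, all were present and 1, *Apoa1*, was called lower, and albumin (*Alb*) alone took 9.92% of control and 9.49% of iFIRKO reads. Of 7 adipocyte markers, 6 were at 0 in control, and in iFIRKO *Plin1* and *Adipoq* had 1 read pair each, *Cfd* had 4, and *Lep*, *Retn* and *Ucp1* had 0. The exception was *Fabp4*, which other liver cells also express, with 469.9 and 469.0 normalized reads. Of 6 muscle markers, 1, *Mylpf*, was called higher, with 22.1 and 49.5 normalized reads (log2 fold change 1.03, interval 0.13 to 2.37). *Mylpf* reached the minimum through its iFIRKO value alone, and the other muscle markers had 2 read pairs or fewer in each library. Of 6 Kupffer cell markers, 4 were called lower and their summed level was 24357 in control and 15604 in iFIRKO. Of 6 endothelial markers, 2 were called lower, with sums of 8926.5 and 6404. Of 6 stellate cell markers none was called, with sums of 8119 and 8606. In bulk tissue, fewer cells of a type and less RNA per cell cannot be told apart, and the part of these cell types in the values below was not tested. *Insr* had 4246 and 3692 normalized reads, a log2 fold change of -0.20, in a tissue where the deletion is not driven.

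Of the 10 genes, 9 reached the minimum and 5 of these were called higher in iFIRKO: *G0s2*, *Cidec*, *Plin4*, *Plin2* and *Plin5*. None was called lower. Over all 13400 genes compared, 4.46% were called higher and 7.28% lower, and since the list was chosen with this contrast known, nothing is read from the difference. *Cidec* reached the minimum through its iFIRKO value alone. The median log2 fold change of the 9 genes was 0.60, or 0.39 with a minimum of 1 CPM in both libraries, which leaves out *Cidec*. That of all genes compared was 0.01 with either minimum. *Cideb* and *Plin3* had folds of 1.14 and 1.13, *Pnpla2* and *Pnpla3* had folds of 0.863 and 0.744, and *Cidea* was at 0 in both libraries. Together the 10 genes made up 0.0734% of control reads (interval 0.0722 to 0.0745) and 0.111% of iFIRKO reads (interval 0.109 to 0.112).

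**Figure D1:**
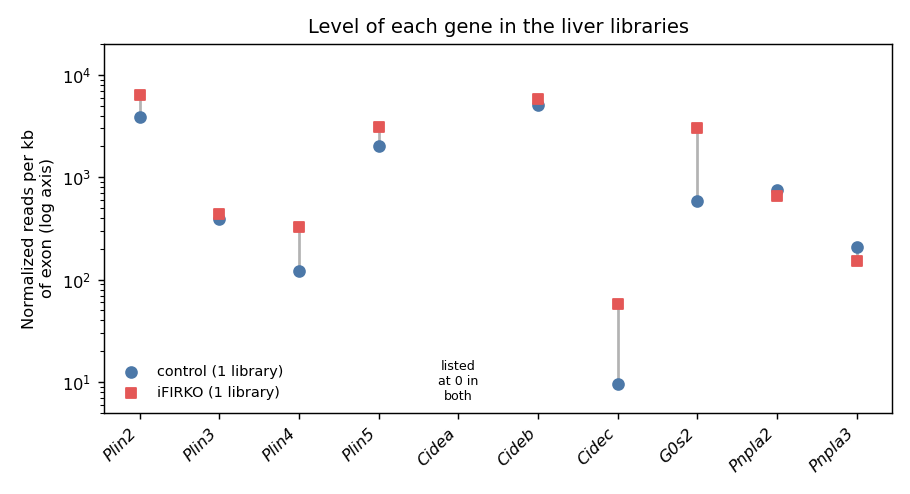
Level of each of the 10 genes in normalized reads per kilobase of exon (log axis), with 1 point for the control library (circle) and 1 for the iFIRKO library (square). *G0s2* moved from 586 to 3011 per kilobase and *Cidec* from 9.64 to 58.4, while *Pnpla2* had 753 and 649.

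The stretches of DNA just before the RefSeq start of the 5 genes called higher are printed to show what they share and do not share in sequence. They are RefSeq sequences on GRCm38.p6, all read from the reverse strand, 5′ to 3′, and capitals mark a match to a searched motif. The *Plin2* stretch is chr4:86670058-86670279 and ends with 2 bases past the RefSeq start. The *Plin4* stretch is chr17:56109783-56109882. The *Plin5* stretch is chr17:56117597-56117728, which ends 49 bases before the upstream RefSeq start of that gene. The stretch at the downstream RefSeq start of *Plin5* is not printed. *Cidec* has 2 annotated starts, at chr6:113435761-113435860 and, within the first intron of the longer form, at chr6:113434765-113434864. The *G0s2* stretch is chr1:193273189-193273288. The last bases of the *Plin2*, *Plin4* and *G0s2* stretches lie inside the GENCODE gene models, which begin farther upstream.
*Plin2*: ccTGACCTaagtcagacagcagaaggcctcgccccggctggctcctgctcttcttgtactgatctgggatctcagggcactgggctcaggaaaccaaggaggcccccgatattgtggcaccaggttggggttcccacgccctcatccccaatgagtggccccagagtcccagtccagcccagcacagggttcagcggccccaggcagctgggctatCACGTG
*Plin4*: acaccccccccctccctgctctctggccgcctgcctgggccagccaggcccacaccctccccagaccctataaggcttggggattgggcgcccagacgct
*Plin5*: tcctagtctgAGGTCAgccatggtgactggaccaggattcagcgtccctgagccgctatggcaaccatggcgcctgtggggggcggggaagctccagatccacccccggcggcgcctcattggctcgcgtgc
*Cidec*, upstream start: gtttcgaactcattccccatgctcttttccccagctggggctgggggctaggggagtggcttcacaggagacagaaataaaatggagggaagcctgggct
*Cidec*, downstream start: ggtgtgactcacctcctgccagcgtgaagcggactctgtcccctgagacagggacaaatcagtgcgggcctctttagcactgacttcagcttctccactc
*G0s2*: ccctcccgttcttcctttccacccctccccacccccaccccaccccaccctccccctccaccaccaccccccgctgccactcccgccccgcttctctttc

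Motifs were searched on both strands from 250 bases before to 50 after each start, in 11 windows of 9 of the 10 genes. The nuclear receptor half-site AGGTCA was found in 3 windows, 1 of *Plin2* and 2 of *Plin5*. Its share of all 32851 windows in the table was 16.3%. In *Plin2* the half-site began 218 bases before the start, read on the opposite strand, and in *Plin5* it began 170 bases before the upstream start and at base 14 after the downstream one. An E-box, with the letters CACGTG, began 4 bases before the *Plin2* start, and 7.15% of all windows hold one. The full PPAR-RXR element, here AGGNCANAGGNCA, was in none of the 11 windows and in 0.381% of all windows. The sterol element TCACNCCAC, the forkhead element GTAAACA and the C/EBP element TTGCNNCAA were in none of the 11 windows either, against 1.24%, 3.65% and 2.08% of all windows. The TATA box TATAAA was in 1 window, that of *Cideb*, against 13.6% of all windows. The *Cidec*, *Plin4* and *G0s2* windows held none of the motifs. These windows are short, and an element farther away would not be seen. Only the exact letters were searched, with N for any base, so a site that departs from them would be missed. The PPAR-RXR, sterol, forkhead and C/EBP letters are rare in all windows. Their absence from 11 windows therefore says little about these genes.

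Among the perilipins, *Plin2* was the most abundant in both livers. PLIN2 coats droplets in most cell types and is degraded when it is not bound to lipid. *Plin2* (ENSMUSG00000028494.12) lies on chromosome 4, 86648386 to 86670060 in GRCm38, as do all positions below. The control liver held 13686 normalized reads and the iFIRKO liver 22423. The fold was 1.64 (log2 0.71, interval 0.67 to 0.76), and 3.04% of the genes compared had a higher fold. Per kilobase of exon the difference was 2488, the largest absolute gain of the 10 genes. That of *G0s2*, 2425, was close to it, and no interval was computed for these differences. An unprocessed pseudogene, *Gm12551*, holds 2.57% of the 50-base words of *Plin2* transcripts and had only 5.31 and 8.77 normalized reads.

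PLIN5 is found in oxidative tissues and links droplets to mitochondria. *Plin5* (ENSMUSG00000011305.11, chromosome 17, 56111601 to 56117596) stood at 4243 normalized reads in control and at 6444 in iFIRKO (log2 fold change 0.60). Its fold of 1.52 lay just past the threshold, and the interval from 1.44 to 1.61 includes 1.5. With upper-quartile scaling of the libraries the log2 fold change was 0.58 and *Plin5* was no longer called. Of the called members it was nearest to the threshold.

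*Plin4* (ENSMUSG00000002831.13, chromosome 17, 56100591 to 56109803) encodes a coat protein that is abundant in white adipose tissue and muscle. Its 698 normalized reads in control compare with 1883 in iFIRKO, a fold of 2.69 (log2 1.43, interval 1.25 to 1.61). Only 62 of the 13400 genes compared, 0.463%, had a higher fold. *Plin4* and *Plin5* are neighbours on the same strand, 1797 bases apart, and differed in fold. The gene on the other side of *Plin5*, *Lrg1*, had 32876 and 33384 normalized reads, a log2 fold change of 0.02. *Hdgfl2*, whose exons overlap those of *Plin4* by 17 bases on the opposite strand, had a log2 fold change of 0.18.

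PLIN3 is a soluble coat protein that moves onto new droplets. *Plin3* (ENSMUSG00000024197.10, chromosome 17, 56277476 to 56292873) stood at 1473 normalized reads in control against 1660.5 in iFIRKO. Its log2 fold change of 0.17 (interval 0.03 to 0.32) was under the threshold. Its neighbour *Ticam1* had a log2 fold change of 0.17, and *Arrdc5* was at 0 in both libraries.

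Summed per kilobase, the 4 perilipins reached 6440 in control and 10237 in iFIRKO, a fold of 1.59. *Plin2* made up 60.5% of the control sum (interval 59.5 to 61.5) and 62.4% of the iFIRKO sum (interval 61.6 to 63.2). The share of *Plin5* was 31.6% in control and 30.2% in iFIRKO, with intervals from 30.5 to 32.6 and from 29.3 to 31.0. The share of *Plin3* was 6.04% in control and 4.28% in iFIRKO. The share of *Plin4* was 1.88% in control (interval 1.68 to 2.08) and 3.18% in iFIRKO (interval 2.98 to 3.39). These shares depend on the length used, since the ratio of *Plin5* to *Plin2*, 0.522 in control and 0.484 in iFIRKO, was 0.295 and 0.273 with the longest transcripts. The family sum moved mainly with *Plin2* and *Plin5*, and *Plin4* stayed the least abundant of the 4 despite its fold.

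*Cideb* carried nearly all CIDE transcripts of both livers. *Cideb* (ENSMUSG00000022219.10, chromosome 14, 55754050 to 55758458) reached 7596 normalized reads in control and 8628 in iFIRKO (log2 fold change 0.18, interval 0.12 to 0.25). In the annotation, 76.3% of its exon bases are also exon of *Nop9* on the opposite strand, and counting is not stated to use strand. *Nop9* had 729 and 671 normalized reads, a log2 fold change of -0.12. The separate values of *Cideb* and *Nop9* are therefore uncertain. *Ltb4r2*, 2969 bases away from *Cideb*, had 27.7 and 39.5 normalized reads.

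CIDEC, also called FSP27, enlarges droplets in adipocytes and is known to appear in fatty liver. *Cidec* (ENSMUSG00000030278.11, chromosome 6, 113424634 to 113435760) was scarce in control, at 17.9 normalized reads or about 9 read pairs, and reached 108 in iFIRKO, about 54 read pairs. The fold was 5.10 with the added constant and 6.06 as a plain ratio, whose interval runs from 1.57 to 3.81 on the log2 scale. The log2 fold change of 2.35 was exceeded by 11 of the genes compared. *Cidec* was compared through its iFIRKO value alone, which favours a high fold, so little is read from this rank. The log2 fold change dropped to 1.33 when the added constant was that of 1 CPM, because the control value is low. Gene-level values do not separate transcripts from the 2 annotated starts. In the per-kilobase sum of the CIDE genes, *Cidec* was 0.188% in control (interval 0.0862 to 0.357) and 0.997% in iFIRKO (interval 0.752 to 1.30), and the rest was *Cideb*.

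*Cidea* (ENSMUSG00000024526.9, chromosome 18) encodes the CIDE protein of brown fat. It was listed at 0 in both libraries, the value these tables appear to use where the scaled count is at most 1, and no fold can be given. Of the 7 adipocyte markers, *Fabp4* had 236 read pairs in control and 233 in iFIRKO, and the other 6 had 0 in control and 0 to 4 in iFIRKO.

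**Figure D2:**
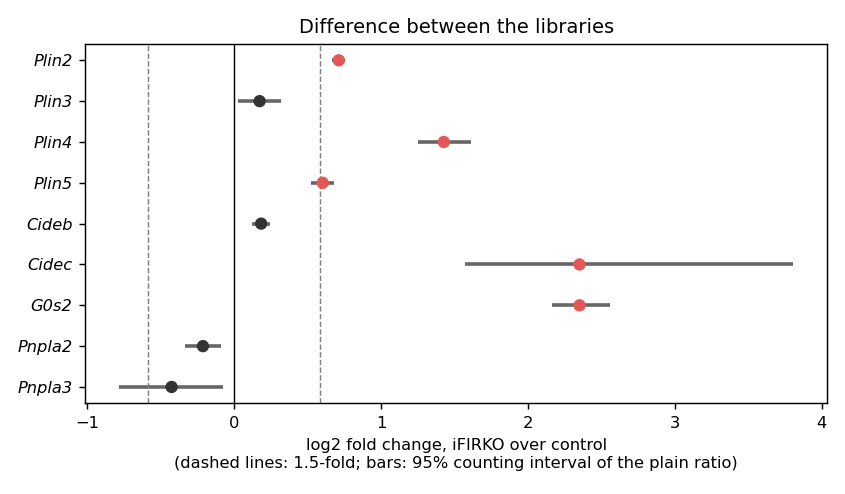
log2 fold change of iFIRKO over control for the 9 genes that reached the minimum (points, red where more than 1.5-fold higher), with bars for the 95% counting interval of the plain ratio and dashed lines at 1.5-fold. The interval of *Cidec* is the widest, from 1.57 to 3.81, that of *Plin5* crosses the upper dashed line, and that of *Pnpla3* crosses the lower one.

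Among the lipolysis genes the inhibitor *G0s2* was called higher and the lipases *Pnpla2* and *Pnpla3* were not called. *G0s2* (ENSMUSG00000009633.3, chromosome 1, 193272161 to 193273217) was at 510.4 normalized reads in control and at 2623 in iFIRKO, a fold of 5.10. The log2 fold change of 2.35 had an interval from 2.17 to 2.56, and 10 of the 13400 genes compared had a higher fold. *Cidec* had a similar fold, from far fewer reads. *G0s2* lies inside the annotated span of *Lamb3*, a laminin chain gene on the opposite strand, with 0 shared exon bases. *Lamb3* itself had 146 and 369 normalized reads (log2 fold change 1.31, interval 0.93 to 1.73), and whether reads of one gene reached the other was not tested.

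*Pnpla2* (ENSMUSG00000025509.15, chromosome 7, 141455198 to 141460743) stood at 1961 normalized reads in iFIRKO against 2273 in control. The log2 fold change of -0.21 had an interval from -0.34 to -0.09 and was under the threshold. Its nearest neighbour *Cracr2b* had 152 and 111 normalized reads, *Rplp2* had a log2 fold change of -0.21, and *Gm10575* had 0 and 10.1 normalized reads. *Pnpla3* (ENSMUSG00000041653.5, chromosome 15, 84167837 to 84187236), a droplet enzyme of the same patatin family that responds to feeding, had 320.1 and 237 normalized reads. Its log2 fold change of -0.43 had an interval from -0.78 to -0.08, which includes the threshold for a lower gene. Of all genes compared, 11.6% had a lower fold than *Pnpla3* and 23.3% a lower one than *Pnpla2*.

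The ratio of inhibitor to lipase transcripts can be read inside each library, where the scaling between libraries plays no part. These are mRNA levels, and the amounts of the proteins and lipase activity were not tested. Per kilobase of exon, the ratio of *G0s2* to *Pnpla2* was 0.779 in control (interval 0.678 to 0.893) and 4.64 in iFIRKO (interval 4.27 to 5.05), a 5.95-fold difference. Below 1 in control, it was above 1 in iFIRKO. With lengths taken from the longest transcript the ratios were 0.677 and 4.03. The coactivator gene *Abhd5* had 1210 and 1306 normalized reads, a log2 fold change of 0.11, and its ratio to *Pnpla2* was 0.270 in control and 0.338 in iFIRKO, or 0.443 and 0.554 with the longest transcripts. The ratio of *G0s2* to *Abhd5* was 2.89 in control and 13.7 in iFIRKO, or 1.53 and 7.28 with the longest transcripts. The ratio of *Pnpla3* to *Pnpla2* was 0.275 in control (interval 0.231 to 0.324) and 0.236 in iFIRKO (interval 0.194 to 0.286), and these intervals overlap.

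**Figure D3:**
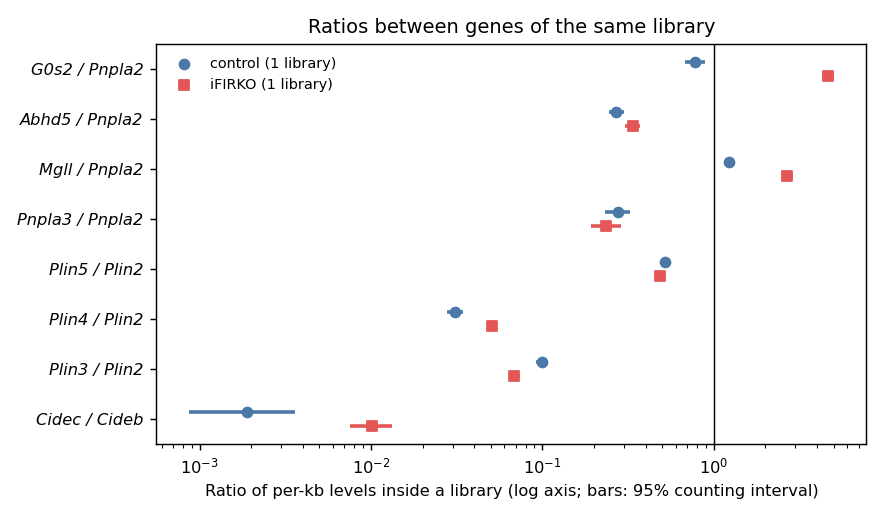
Ratios of per-kilobase levels between pairs of genes inside the control library (circles) and the iFIRKO library (squares), on a log axis with 95% counting intervals. *G0s2* over *Pnpla2* moved from 0.779 to 4.64, across a ratio of 1, and *Cidec* over *Cideb* from 0.00189 to 0.0101.

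Ordered by level per kilobase of exon, the control liver had *Cideb* at 5105, *Plin2* at 3897, *Plin5* at 2033, *Pnpla2* at 753, *G0s2* at 586, *Plin3* at 389, *Pnpla3* at 207, *Plin4* at 121 and *Cidec* at 9.64. In iFIRKO the order was *Plin2* at 6385, *Cideb* at 5798, *Plin5* at 3088, *G0s2* at 3011, *Pnpla2* at 649, *Plin3* at 439, *Plin4* at 326, *Pnpla3* at 153 and *Cidec* at 58.4. *G0s2* had thus moved past *Pnpla2* to the level of *Plin5*, and *Plin4* past *Pnpla3*. The places of *Cideb* and *Plin2* in control depend on the length used, since with the longest transcript they were 6268 and 7249. Of the added transcript level per kilobase, *Plin2* contributed 2488, *G0s2* 2425, *Plin5* 1055, *Cideb* 693, *Plin4* 205, *Plin3* 49.7 and *Cidec* 48.8, while *Pnpla2* decreased by 103 and *Pnpla3* decreased by 53.6. The amount for *Plin2* depends on the length used, since with the longest transcript its levels were 7249 and 11877, while those of *G0s2* did not change.

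**Figure D4:**
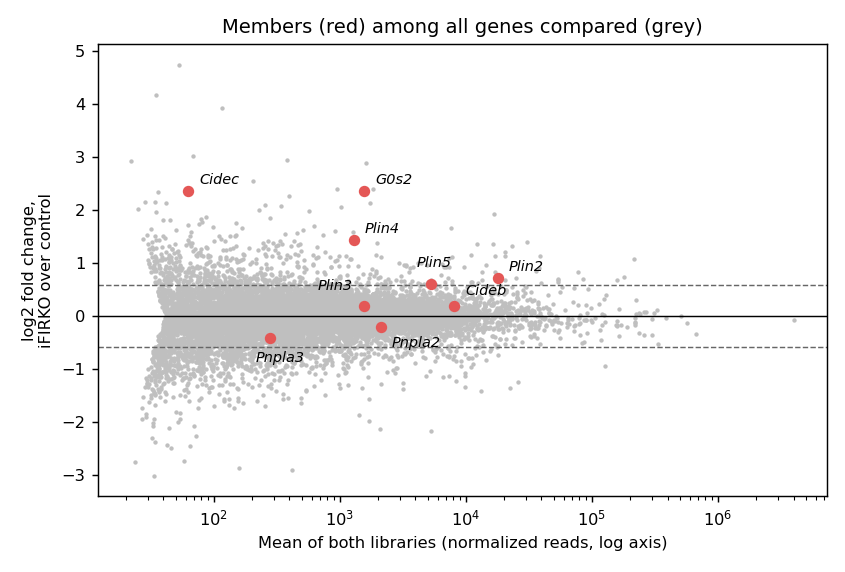
log2 fold change of iFIRKO over control against the mean of both libraries in normalized reads (log axis), for the 13400 genes compared (grey) and the 9 genes of the list that were compared (red). Dashed lines mark 1.5-fold. *G0s2* and *Cidec* stand at 2.35 and *Plin4* at 1.43, while *Plin3*, *Cideb*, *Pnpla2* and *Pnpla3* lie between the lines.

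Of 18 other droplet genes found in the tables, 17 were compared, 1 was called higher and 0 lower, beside 4.46% and 7.28% of all genes compared, and the median log2 fold change was -0.04. The one called was *Fitm1*, which encodes an endoplasmic reticulum protein that helps to partition triglyceride into droplets, at 459 normalized reads in control against 1060 in iFIRKO (log2 fold change 1.20, interval 0.98 to 1.44). Its relative *Fitm2* had 1847 and 2646 normalized reads, a fold of 1.43, under the threshold. The most abundant per kilobase were *Mettl7b* (log2 fold change 0.07), *Hsd17b13* (-0.04) and *Mettl7a1* (-0.29), all droplet-associated enzymes. *Plin1*, the perilipin of adipocytes, had 0 and 1 read pairs.

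Of 15 other lipases and cofactors, 13 were compared, 1 was called higher and 1 lower, beside the same 4.46% and 7.28% over all genes, with a median log2 fold change of 0.11. *Mgll*, which encodes the monoacylglycerol lipase of the last step of lipolysis, was at 4718 normalized reads in control against 8861 in iFIRKO (log2 fold change 0.91, interval 0.84 to 0.98). *Lpl*, which encodes the lipoprotein lipase that acts on circulating triglyceride, had 1564 and 1029 (log2 fold change -0.60). The *Lpl* interval from -0.77 to -0.44 includes the threshold. The hormone-sensitive lipase gene *Lipe*, which acts between *Pnpla2* and *Mgll*, had 804 and 666 normalized reads, a log2 fold change of -0.27. *Mgll* was thus called, and *Pnpla2* and *Lipe*, which act before it, were not. Another gene of the list, *Ddhd2*, had a fold of 1.49, just under the threshold. The most abundant per kilobase were *Aadac* (log2 fold change 0.09), *Lipc* (-0.34) and *Lipa* (0.03).

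Among 12 transcription factors and coactivators known to act on such genes, 1 was called higher and 0 lower, again beside 4.46% and 7.28%, with a median log2 fold change of -0.06. *Pparg*, the nuclear receptor of adipocyte differentiation, was at 358 normalized reads in control against 677 in iFIRKO (log2 fold change 0.91, interval 0.65 to 1.19). *Ppara*, the receptor that prevails in hepatocytes, had 1908 and 2066 (log2 fold change 0.11, interval -0.01 to 0.24). Per kilobase *Pparg* stood at 121 and 229 and *Ppara* at 498 and 538, so *Ppara* transcripts were more abundant in both livers. The 3 factors most abundant per kilobase were *Mlxipl* (log2 fold change -0.44), *Cebpa* (-0.07) and *Cebpb* (-0.26) in control, with *Creb3l3* (0.37) in place of *Cebpb* in iFIRKO. These 3 lists were written with earlier results of these libraries known, so their counts are a description.

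**Figure D5:**
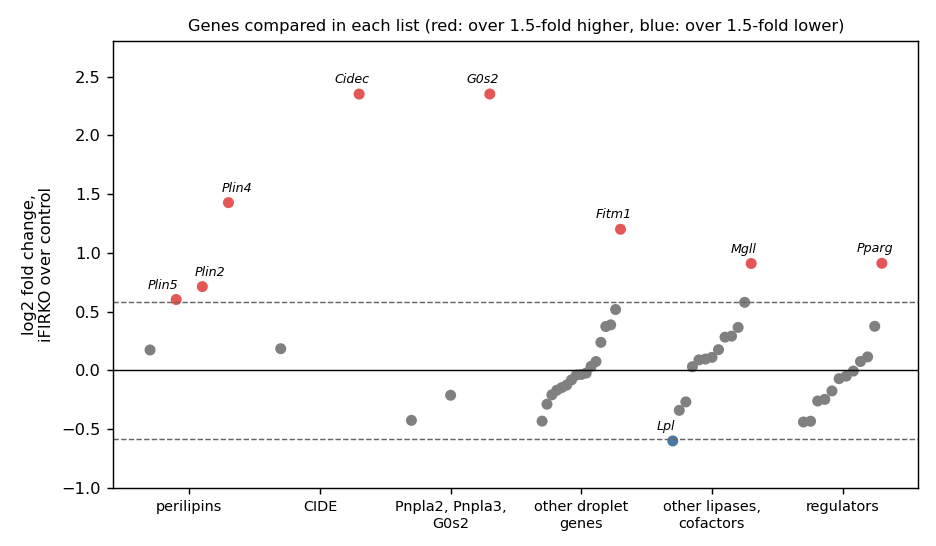
log2 fold change of iFIRKO over control for each compared gene of the perilipin, CIDE and lipolysis groups and of the 3 further lists, with dashed lines at 1.5-fold. Outside the 10 genes, *Fitm1*, *Mgll* and *Pparg* (red) lie above the upper line and *Lpl* (blue) below the lower one.

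Reads could be assigned to the 10 genes with few ambiguities between them. No member shared a 50-base word with another member, and *Plin4*, *Plin5*, *Cidea*, *Cidec*, *G0s2* and *Pnpla2* shared none with any other annotated gene. *Plin3* shared 1.20% and *Pnpla3* 5.14% of their words with other genes, and *Cideb* 70.2%, all of it with *Nop9*. The exons of *Pnpla3* also overlap those of *Gm49513* by 105 bases, a transcript not analysed here. The other annotated neighbours within 5 kb that the tables list, 1 of *Cidea*, 2 of *Cidec* and 1 of *Pnpla3*, were at 0 in both libraries.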

How the data were processed

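Stranded mRNA libraries (TruSeq) of liver total RNA were sequenced on a NovaSeq instrument. The authors deposited 1 value per gene symbol, headed as a normalized read count. From their range and steps, the deposited values are normalized counts that the authors put on a log2 scale, with scaled counts up to 1 written as 0. No source states this, nor the scaling method. The submitters' processing notes name mm10, the same assembly as GRCm38. The aligner, counter and annotation are not given in the sources used here.

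The commonest value near 2 was taken as 1 read pair, 1.987 in control and 2.013 in iFIRKO. Only 48.2% and 46.9% of values up to 20 normalized reads were then whole within 0.01 pairs, so no count model was fitted across genes. Depths, and the read pairs behind the binomial intervals, are estimates, and the intervals are approximate. A CPM of 1 stands for 41.8 normalized reads, and it was the minimum in 1 or both libraries. The fold of 1.5 is that of the study's methods. No fold is given where a library holds 3 read pairs or fewer. Members and lists were chosen with earlier results of these data known. Genes named are all members, their neighbours within 5 kb, and from each other list those past 1.5-fold and the 3 most abundant per kilobase. *Gm12551*, *Insr*, *Fabp4*, *Alb*, *Abhd5*, *Fitm2*, *Lipe*, *Ddhd2* and *Ppara* were added after their values were seen. Lengths are exon unions in GENCODE M21. Intervals of family shares hold the mix of the other members fixed. Calls and intervals were checked on simulated counts, drawn as whole read pairs with 2-fold differences and no variation between mice. That check does not cover calls near 1.5-fold, values that are not whole pairs, or variation between mice. Protein sequences were not analysed here. Scripts ran in Python 3.11.15 with scipy 1.17.1, numpy 2.4.6 and pandas 2.3.3, and plots were drawn with matplotlib 3.10.9.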

Additional observations from a re-analysis of the deposited data

How the results depend on the processing

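The 5 members called higher became 4 with upper-quartile scaling, where *Plin5* left, and with either stricter minimum, where *Cidec* was no longer compared. With a fold above 2 there were 3: *G0s2*, *Cidec* and *Plin4*. No member was called lower under any setting. The median log2 fold change of members, 0.60, was 0.39 with a minimum of 1 CPM in both libraries and 0.39 with a minimum of 5 CPM, both of which leave out *Cidec*, and lay between 0.58 and 0.60 otherwise. Of 13378 genes compared with upper-quartile scaling, 541 were higher and 1031 lower. Of 12765 with a minimum of 1 CPM in both libraries, 437 were higher and 711 lower. With a minimum of 5 CPM these counts were 288 and 440 of 10145, and with a fold above 2 they were 209 and 267 of 13400. A pseudocount of 1 CPM gave 371 and 576 of 13400, and leaving out the minimum gave 1960 and 2620 of 21768. Of 70 recomputed member fold changes, 69 stayed inside their counting interval, the exception being *Cidec* at 1.33 with a pseudocount of 1 CPM, and none changed sign. Many of the 70 could not leave it. A change of minimum leaves the fold change of a member as it was, and the plain ratio always lies inside its own interval. Of 20 levels per kilobase, 9 left their counting interval when the longest transcript set the length. All of them moved upwards by construction, since the exon union is never shorter than that transcript. No paired analysis was possible because control and iFIRKO are single libraries, which also leaves no replicate to omit. Counting error limits *Cidec* and *Pnpla3* most.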
